A study of Mus musculus with 6 samples.

Results

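Cytosolic ribosomal protein genes were taken as the symbols that begin with Rpl or Rps and continue with a number, an "a" or a stalk name, without the kinases named Rps6k, each represented by its transcript with the most reads. This rule found 84 of the 23282 gene symbols in the deposited table, 33 of the small (40S) and 51 of the large (60S) subunit. The cells were macrophages recruited to the peritoneum of female C57BL/6 mice by thioglycollate, and their RNA was sequenced after poly(A) selection. The cells were treated for 48 hours with 1 of 3 siRNAs, named siCtl (control), siSmyd5 (against the histone methyltransferase gene Smyd5) or siPhf2 (against the histone demethylase gene Phf2). Each was followed by vehicle or, for 4 hours, by 100 ng/ml KLA (Kdo2-lipid A, the active part of endotoxin, which activates Toll-like receptor 4). Each of the 6 combinations of siRNA and agent had 1 library. No replicate spread therefore lies behind the p-values below. Their error is how far the change with KLA differed between the siRNAs. Nothing in the labels ties the libraries to separate mice or dishes, so whether this error holds variation between animals or cultures is not known.

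Ribosomal proteins are made in near-equal amounts and assembled with ribosomal RNA in the nucleolus, and cells spend a large share of their protein synthesis on them. Their mRNAs are short and carry a terminal oligopyrimidine (TOP) tract, an unbroken run of C and T at the cap, through which the kinase mTORC1 and the protein LARP1 control their translation. The genes have left many processed pseudogenes, intronless copies of their mRNAs, across mammalian genomes. In macrophages, activation through Toll-like receptors is known to engage mTORC1.

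Libraries differed before any ribosomal protein was considered. The siCtl and siSmyd5 libraries held between 919338 and 1429509 reads, and the siPhf2-labelled libraries 577054 and 420149. Rn45s, the precursor of ribosomal RNA, took at most 1.195% of reads in the first 4 libraries but 66.655% and 71.642% in the siPhf2-labelled ones, which left 192420 and 119144 other reads. The header totals of siCtl give whole reads only in the siPhf2 columns and the reverse, so either the names or the totals of these columns were exchanged. Phf2 stood at 120 (vehicle) and 58.7 (KLA) CPM in the siPhf2-labelled libraries against 47.1 and 54.1 in siCtl, so it does not check that label. Smyd5 stood at 6.04 and 14.4 in the libraries labelled siSmyd5 (9 and 20 reads) against 18.3 and 13.1 in siCtl (44 and 29 reads). It was lower under vehicle and not under KLA, so the KLA library does not bear out its label. That label is all that names this library below. Phf2 stood at 34.9 and 24.5 CPM in the siSmyd5-labelled libraries, below every other library. The 7 macrophage markers summed to 3660 to 5300 CPM in every library, T cell markers to at most 3 reads, B cell markers to 5.37 to 16.6 CPM, and 3 neutrophil markers to at most 25.5 CPM. Both globin genes of red cells had no read and mast cell genes summed to at most 17 reads. Stromal markers, led by Col1a1 and Col1a2, were present and summed to 838 and 864 CPM in siCtl, 649 and 718 under the siSmyd5 label and 430 and 330 in the siPhf2-labelled libraries; their part in the results below was not tested. Fewer cells of a type and less RNA per cell cannot be told apart in such bulk libraries. Levels are given in CPM, counts per 1000000 reads after TMM scaling, which sets the libraries to a common level of the bulk of genes.

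The first feature of the family was how unevenly its reads were spread. Only 44 of the 84 genes averaged at least 10 reads per library and could be tested, 21 of the small and 23 of the large subunit, whereas 37 averaged under 3 reads. No read fell on Rpl11, Rpl23a, Rpl37a, Rpl41 or Rps27a in any library, which allows at most 1.25 CPM in siCtl vehicle and at most 22 in the siPhf2-labelled KLA library by the rule of 3 reads. A further 8 genes had 1 read over all libraries, among them Rpl15, Rpl21, Rpl27, Rpl36, Rpl39, Rps13 and Rps29. At the other end the 4 genes with the most reads, Rpl4, Rpl8 and Rps3 among them, took 36.4% of all reads of the family. The share of genes reaching the minimum was 52.4% in the family and 34.3% among the rest of the table. The nearest genes on either side of it were Rps4y2, listed in RefSeq as a transcribed pseudogene under the name Rps4l, with a mean of 12 reads, and Rpl35a with 9.833.

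This order followed how much of each coding sequence also occurs elsewhere in the transcriptome. Every coding sequence was read in overlapping 30-base windows, and a window counted as shared when the same letters occurred in a transcript of another locus in the GENCODE annotation of GRCm38. The first 60 coding bases of 5 genes show the range, with capitals marking bases that lie in a shared window.
Rps27a: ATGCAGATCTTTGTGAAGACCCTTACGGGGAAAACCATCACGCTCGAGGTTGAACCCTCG
Rpl11: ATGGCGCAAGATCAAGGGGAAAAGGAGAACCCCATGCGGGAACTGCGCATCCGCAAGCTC
Rpl13: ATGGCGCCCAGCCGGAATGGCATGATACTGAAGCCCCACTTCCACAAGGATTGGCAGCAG
Rps3: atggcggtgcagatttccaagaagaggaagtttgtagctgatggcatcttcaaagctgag
Rpl8: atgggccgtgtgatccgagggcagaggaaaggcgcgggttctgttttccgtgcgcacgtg

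Rps27a, whose protein is made as a fusion with ubiquitin, and Rpl11, of the 5S ribonucleoprotein, were shared along the whole 60 bases and had no read. Rps3 and Rpl8 had few shared windows over their whole coding sequence (20.06% and 11.14%) and averaged 388 and 398.8 reads. Rpl13 had every base shared and still averaged 48.5 reads.

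Over the 82 genes with a matched coding sequence (all but Rps3a and Rps4y2) the median share was 96.26%, and the median member had 15 other loci with a common window. The median over 18532 other genes was 0.0%, their upper quartile was 8.479%, and 1.68% of them reached the 99% that 41.5% of the family reached. In the 34 members shared by at least 99% the median of the mean reads was 0.5, and 31 had a mean under 3. The 29 members shared by 80 to 99% had a median of 39.17 reads. The 19 members shared by less than 80% had a median of 137.3 reads, and 16 of them were tested against 1 of the 34. Across the 82 genes the Spearman correlation of the shared share with mean reads was -0.774, and -0.76 with 20-base windows; the genes share the same 6 libraries and many share a length class. Exceptions were Rpl3l, Rpl39l and Rpl10l, copies with restricted tissue use, which were shared by only 0, 14.17 and 39.61% and averaged 1.167, 1.0 and 0.8333 reads. Outside the family the same split was seen. Of 312 other genes shared by at least 99%, 2.88% reached a mean of 10 reads, against 40.1% of 17674 genes shared by less than 80%. Whether reads with more than 1 match were kept is not given in the sources used here, and the part this plays in the missing reads was not tested. For these genes a scarce mRNA and unassigned reads cannot be told apart.

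**Figure D1:**
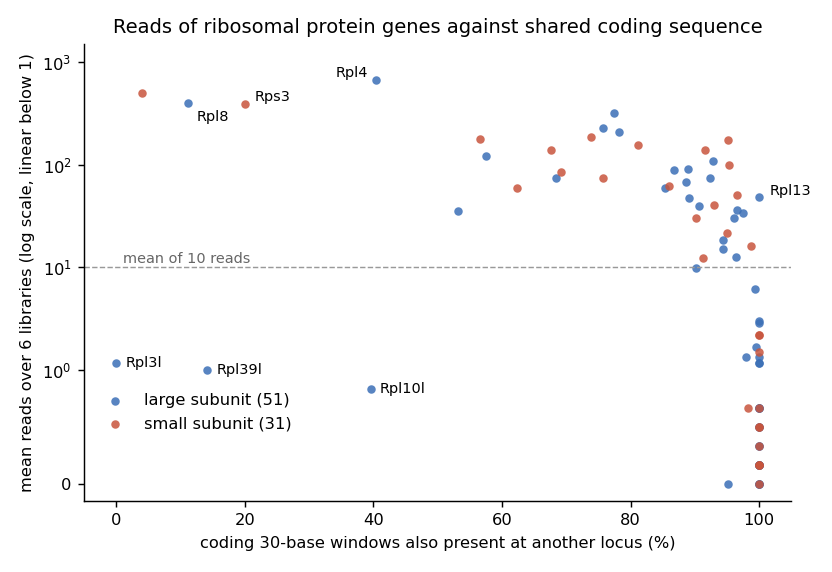
Mean reads over the 6 libraries (vertical axis, log scale, linear below 1) against the share of coding 30-base windows found at another locus (horizontal axis, percent) for the 82 genes with a coding sequence, large subunit in blue and small in red. Rpl8 and Rps3 stand at the upper left, most genes shared by at least 99% lie under 3 reads, and Rpl13 and the copies Rpl3l, Rpl39l and Rpl10l stand apart from that order.

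The starts of the genes showed the sequence features the family is known for. RefSeq promoter windows (GRCm38.p6) were matched for 62 of the 84 genes, and the longest C and T run that overlapped the 10 bases on either side of the annotated start was measured in each. Of the genes higher in the siSmyd5 comparison below, 12 had a window. Among these, Rpl22, Rpl23, Rpl37, Rps15 and Rps4x had runs of 3 to 6 bases and are not shown. The 30 bases around the run, in capitals, are shown for the 6 with at least 8 bases, for Rpl26 and for Rps6.
Rps15a: ccggcccaCTCTCTTTCTgccatcttccct
Rpl13: tgacgtcaCTTCCCTTTCgcctgattttga
Rpl34: ctcacccgCCCCTTCCTTTTCCTCTTCCgg
Rpl14: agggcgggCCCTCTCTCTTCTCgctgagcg
Rpl13a: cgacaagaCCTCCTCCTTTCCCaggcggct
Rps9: ccgccttgTCTCTCTTTgtctcgggcctga
Rps6: aagtcgggCCTCTTTTTCgtgacgcctccc
Rpl26: cgcggcaaCTTacagaaccggaagtcgcgt

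The Rps15a window lies at chr7:118116141-118116170 on the minus strand and that of Rpl13 at chr8:123102326-123102355 on the plus strand. Rps6, whose protein is the classic substrate of S6 kinase, had a run of 10 bases, and Rpl26 one of only 3 at its annotated start. A run of at least 8 bases was present in 29 of 62 members (46.774%) and in 15.688% of the promoters of 26963 other symbols, and the median run was 7 bases against 4. The letters CCGGAAG, an ETS-like motif that the Rpl26 window also carries, occurred on either strand of the 300-base window in 38.71% of members and 9.038% of the others. For TGACGT, part of the CREB-type element, the shares were 19.355% and 7.477%, and for AAGATGGC, a YY1-like motif, 9.677% and 2.83%. TATAAA was found in 11.29% and 14.179%. By the calls described below, 6 of 12 called genes with a window, 10 of 18 tested genes that were not called and 13 of 32 untested genes held a run of at least 8 bases.

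Per kilobase of mRNA and averaged over the 6 libraries, high levels belonged to Rpl8 (354.2 CPM per kilobase), Rpl4 (325.7), Rpl32 (311.5) and Rplp1 (293.6). Rps20 (272.6), Rps26 (234.9), Rps9 (204.4) and Rps14 (178.3) followed. Rpl8 and Rpl4 reach towards the peptidyl transferase centre and the exit tunnel, and Rplp1 belongs to the acidic stalk. Per kilobase of coding sequence Rplp1 (395.7) came before Rpl8 (391.7). These levels count assigned reads, which followed the shared share of the coding sequence, and so give no order of mRNA amounts between members. With 1 library per group no spread is available for neighbouring genes.

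Taken as a sum, the 84 genes made up 0.6258% of the reads without Rn45s in siCtl vehicle (Wilson 95% interval 0.6127 to 0.6393) and 0.5154% in siCtl KLA (0.5038 to 0.5274). In the siSmyd5-labelled libraries the share was 0.902% under vehicle (0.8828 to 0.9216) and 0.7878% under KLA (0.7698 to 0.8061). For the siPhf2-labelled pair it was 0.3794% (0.3529 to 0.4079) and 0.2577% (0.2304 to 0.2881). Both siSmyd5-labelled libraries thus lay above both siCtl libraries and both siPhf2-labelled libraries below them. These intervals cover counting error only, because the reads carry no molecular identifiers, and they hold no spread between cultures.

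After TMM scaling the summed ratio of siSmyd5 to siCtl was 1.56 under vehicle (95% interval 1.52 to 1.61) and 1.57 under KLA (1.52 to 1.62). The siPhf2-labelled ratio was 0.857 (0.793 to 0.924) and 0.682 (0.607 to 0.765). KLA against vehicle gave 0.936 (0.907 to 0.966) in siCtl, 0.94 (0.911 to 0.97) under the siSmyd5 label and 0.745 (0.65 to 0.853) in the siPhf2-labelled arm. The siSmyd5 and siPhf2 comparisons share the siCtl libraries.

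**Figure D2:**
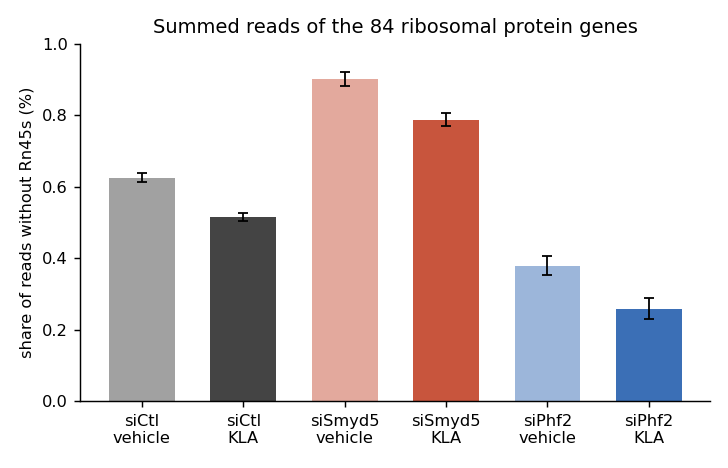
Share of reads without Rn45s (percent, axis from 0) that fell on the 84 genes, 1 bar per library, with Wilson 95% intervals that cover counting error only. The siSmyd5 bars reach 0.902 and 0.7878%, above both siCtl bars, and the siPhf2-labelled bars 0.3794 and 0.2577%, below them.

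The siSmyd5 comparison asks how macrophage RNA differed after siRNA against Smyd5, averaged over vehicle and KLA, with the limit that Smyd5 itself was not lower in the KLA library. Of the 44 tested genes 15 rose and 0 fell (edgeR quasi-likelihood, Benjamini-Hochberg adjusted p below 0.05), against a background of 2.71% of all 7995 tested genes higher and 3.6% lower. The median log2 fold change of the 44 genes was 0.654, and that of all tested genes 0.00271. The small subunit gave 6 of 21 and the large subunit 9 of 23. Of 16 genes with less than 80% of their coding windows shared 5 were higher, and of 26 with at least 80% 10 were. With length offsets, described below, these counts were 0 and 3, beside 0.325% of all tested genes. Over 42 tested genes the Spearman correlation of the shared share with this fold change was 0.0788. At an unadjusted p under 0.05, 0 lower calls became 1, and DESeq2, limma-voom and limma on log2 values called none lower. For that threshold and these tools the shares of all genes were not taken. Neutrophil markers stood in the same order, at 25.5 and 20.2 CPM against 10.4 and 8.57 in siCtl, nearly all of it S100a8 with at most 1 read on S100a9 or Ngp in any library. Their part in the result was not tested.

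Rps15a, a protein of the small subunit, and Rpl13, of the large, had the largest changes, which did not differ beyond their errors. Of their coding windows 95.33% and 100% also occur at another locus, and of those of Rpl26 and Rps20 below 92.91% and 95.17%. Whether reads counted on these genes came from the named mRNAs alone was not tested. The level of Rps15a was 19.6 (vehicle) and 33.82 (KLA) CPM in siCtl and 172.5 and 130.6 under the siSmyd5 label. With the siPhf2 label it was 115.9 and 14.67, from 28 and 2 reads. Both siSmyd5-labelled libraries were above every other library, and the log2 fold change was 2.49 (SE 0.30, edgeR adjusted p = 0.000434). It came to 1.69 without siCtl vehicle and 3.41 without siCtl KLA, and with the names of siCtl and siPhf2 exchanged to 0.99 (edgeR adjusted p = 0.0953). Its mRNA at chr7:125247890-125259661 (mm9) is listed with 5129 bases, although its coding sequence has 393.

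Rpl13 had 10.84 and 15.33 CPM in siCtl, 57.73 and 90.2 under the siSmyd5 label, and 49.66 and 58.66 in the siPhf2-labelled libraries. Only the 2 siCtl libraries were low, and with the siSmyd5 label the gene rose by 2.48 (SE 0.25, edgeR adjusted p = 4.1e-05). With the names exchanged this came to 0.40 (edgeR adjusted p = 0.454). It lies at chr8:125626250-125629142 (mm9).

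Rpl26, which sits at the mouth of the exit tunnel and is also known to bind the mRNA of p53, had 42.95 and 41.94 CPM in siCtl and 137.6 and 160.2 under the siSmyd5 label. In the siPhf2-labelled libraries it had 124.1 and 22, so these 2 stood on opposite sides of siCtl. Its log2 fold change with the siSmyd5 label was 1.81 (SE 0.26, edgeR adjusted p = 0.00104), and 0.82 (adjusted p = 0.115) with the names exchanged.

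Rps20, of the small subunit head, had 70.05 and 88.38 in siCtl, 222.9 and 230.2 under the siSmyd5 label, and 107.6 and 95.33 in the siPhf2-labelled libraries, a rise of 1.52 (SE 0.21, edgeR adjusted p = 0.00104). Rpl14 had 25.02 and 34.72 in siCtl against 68.47 and 78.65, a rise of 1.31 (SE 0.22, edgeR adjusted p = 0.00414). For both, the 2 siSmyd5-labelled libraries were close together and above all others.

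Rpl34 had 38.36 and 56.82 in siCtl against 136.9 and 84.43 under the siSmyd5 label, a log2 change of 1.21 (SE 0.24). It came to 0.59 without either vehicle library of this comparison, and to 1.82 and 1.80 without siCtl KLA and without the siSmyd5-labelled KLA library. Rpl23 rose by 1.06 and Rpl22, a large subunit protein known for its role in T cell development, by 0.98. Rplp1, Rpl37, Rps4x, Rps9, Rps15 and Rpl13a also rose, by between 0.72 and 0.91. In each of the 15 genes both siSmyd5-labelled libraries were higher than both siCtl libraries. The 15 were chosen by a test on these same libraries, which favours this order, so it is no separate evidence.

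**Figure D3:**
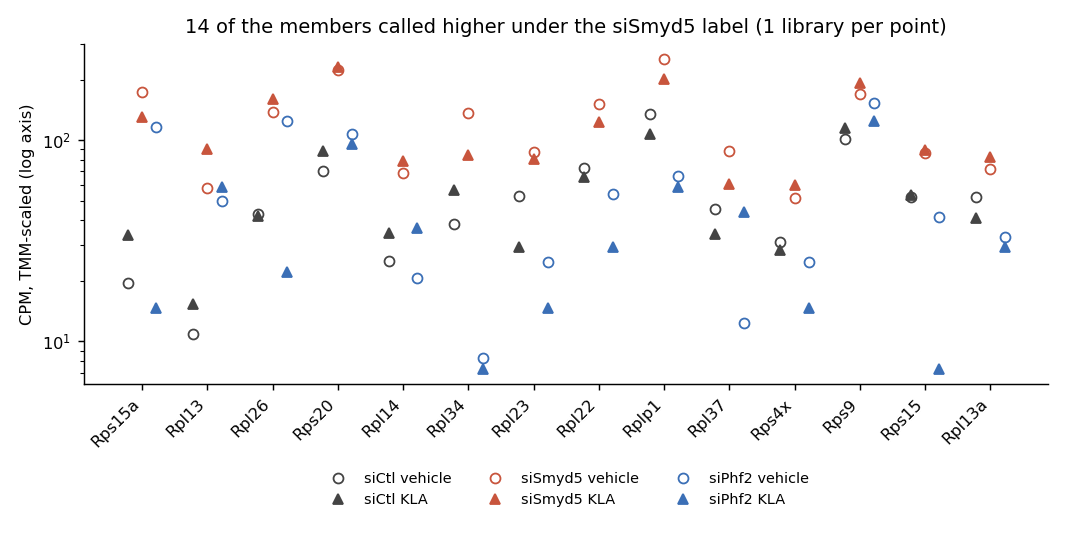
TMM-scaled CPM (log axis) of 14 of the 15 genes higher with the siSmyd5 label, 1 point per library, open circles for vehicle and triangles for KLA, siCtl in grey, siSmyd5 in red and siPhf2-labelled in blue. The red points lie above the grey ones in every gene, an order that the choice of the genes from these same libraries favours. The blue points lie above siCtl for Rpl13 and below it for Rpl34.

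By role, 1 of 3 stalk genes, 2 of 4 genes with reports outside the ribosome and 0 of 3 copies were called higher. Of all tested genes 2.71% were. With length offsets these counts were 0, 1 (Rpl26) and 0, beside 0.325% of all genes. Rplp1 (edgeR adjusted p = 0.5) and Rpl13a (0.442) then lost the call. Lists this short show nothing particular to a role. Of the stalk, which recruits the translation GTPases, Rplp1 rose by 0.91 (SE 0.20, edgeR adjusted p = 0.0163), while Rplp0 and Rplp2 both stood at 0.47 with adjusted p of 0.203 and 0.193. Of the proteins reported to act outside the ribosome, Rpl26 and Rpl13a (a part of the complex that silences inflammatory mRNAs in myeloid cells) rose. Rps3, linked to DNA repair and NF-kappaB, stood at 0.65 (adjusted p = 0.0776), and Rps19, the gene most often mutated in Diamond-Blackfan anaemia, at -0.49 (adjusted p = 0.224). None of the 3 tested copies passed the edgeR test: Rps27l, a p53 target, stood at 0.51, Rpl22l1 at 0.09 and Rpl7l1 at -0.01. The 5S ribonucleoprotein genes Rpl5 and Rpl11, which hold back MDM2 when ribosome assembly fails, had 0 to 4 reads per library and could not be tested. Rps6 and the laminin receptor gene Rpsa had at most 2.

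Transcript length moved with this comparison. The tested ribosomal protein mRNAs had a median length of 811.5 bases against 2911 over all tested genes, and across all genes the siSmyd5 fold change fell with length. Fitted with offsets for mRNA length, 3 of the 44 were higher (Rps15a at 2.78, Rpl13 at 2.0 and Rpl26 at 1.22) and 0 lower, against a background of 0.325% and 0.1%. Rps15a, listed with 5129 bases for a coding sequence of 393, was set against long genes here. Its value without offsets was 2.49. The median then came to 0.137. With offsets by coding length, an alternative added after the data were seen, 5 genes were higher, the same 3 with Rpl14 and Rps20. The calls also depended on the tool and the libraries: DESeq2 kept Rpl13 and Rps20, limma-voom kept Rps15a, Rpl13, Rpl26 and Rps20, and limma on log2 values kept none. How many of all genes these tools called was not taken. Leaving out 1 siCtl or siSmyd5-labelled library leaves 1 library in that group. The median of the 44 genes was then 0.651 without siCtl vehicle and 0.65 without siCtl KLA. It was 0.747 without the siSmyd5-labelled vehicle library and 0.58 without the KLA library of that label, against 0.654 in the main analysis. Without either siPhf2-labelled library 30 genes were higher and 2, Rpl3 and Rps19, lower, where 14.6% and 12.9% of all genes were called without the vehicle library and 14.5% and 12.8% without the KLA library. Without both, 29 were higher and 2 lower, against 13.2% and 14.2%. With the names of siCtl and siPhf2 exchanged, which the header totals leave possible, 21 genes were higher, against 11.7% of all genes higher and 13.6% lower. Of the 15 genes 10 were among these 21, and Rps15a, Rpl13, Rpl26 and Rps9 (0.34, edgeR adjusted p = 0.388) were not.

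**Figure D4:**
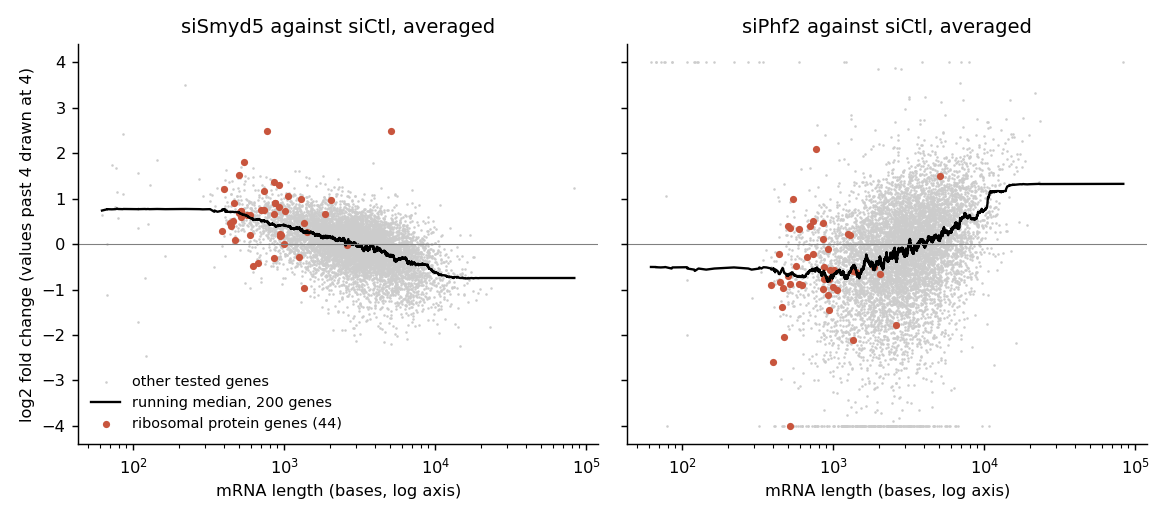
Log2 fold change against siCtl, averaged over the agents (vertical axis; values past 4 drawn at 4), against mRNA length (bases, log axis) for siSmyd5 on the left and siPhf2-labelled on the right. Grey points are the other tested genes, the line is their running median over 200 genes and red points are the 44 ribosomal protein genes; the line falls with length on the left and rises on the right, red points lie on both sides of it, and Rps15a and Rpl13 stand near 2.49 on the left.

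Between single libraries a gene was called by size when the log2 ratio, with 2 reads added, was at least 1 in either direction and the exact Poisson 95% interval of the ratio excluded 1; these comparisons have no replicate check. Under vehicle 9 of the 44 genes were higher and 0 lower with the siSmyd5 label (background 2.41% and 4.99%). Rps15a led with a ratio of 8.80 (95% interval 6.43 to 12.3), before Rpl13 (5.33, 3.40 to 8.61), Rpl34 (3.57, 2.78 to 4.62), Rpl26 (3.20, 2.52 to 4.10) and Rps20 (3.18, 2.63 to 3.85). Under KLA 9 were higher and 1 lower (background 1.73% and 3.63%). Rpl13 led with 5.88 (4.0 to 8.87), before Rps15a (3.86, 2.93 to 5.12), Rpl26 (3.82, 2.99 to 4.92), Rpl23 (2.76, 2.0 to 3.8) and Rps20 (2.60, 2.17 to 3.13). The gene that was lower was Rpl3, which reaches towards the peptidyl transferase centre, with a ratio of 0.31 (0.152 to 0.58). Higher calls under both agents were shared by 6 genes. Of the 16 genes with less than 80% of their coding windows shared, 1 was higher under vehicle and 0 under KLA. Of the 26 with at least 80%, 8 and 9 were higher.

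Each ratio was also set against the median of the 200 tested genes nearest in mRNA length that are no ribosomal protein genes. The median log2 ratio went from 0.559 to 0.0656 under vehicle and from 0.713 to 0.291 under KLA. Before this correction 33 of the 44 genes were above 0 under both agents and 3 below under both, and after it 21 and 11, with 12 on different sides. The highest corrected values were those of Rps15a (3.28 under vehicle, 2.12 under KLA), Rpl13 (1.79, 2.05), Rpl26 (0.99, 1.38), Rps20 (0.97, 0.83), Rpl22 (0.91, 0.76) and Rpl14 (1.0, 0.76). Rps15a, listed with 5129 bases, was set against long genes, and its measured values were 3.04 and 1.90. The lowest with both values below 0 included Rps19 (-1.05, -1.01), Rpl3 (-0.81, -1.76), Rpl7a (-1.06, -0.27), Rpl18 (-1.51, -0.15) and Rpl22l1 (-0.94, -0.18). Against genes of like length the ribosomal protein genes thus lay on both sides of 0. For Rps19 the measured values were 57.12 and 51.41 CPM in siCtl and 41.62 and 35.36 under the siSmyd5 label, and for Rpl3 they were 36.69 and 27.96 against 24.84 and 8.659. Both genes were lower in both siSmyd5-labelled libraries than in either siCtl library, and neither passed the test over all 6 libraries (edgeR adjusted p of 0.224 and 0.0664).

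**Figure D5:**
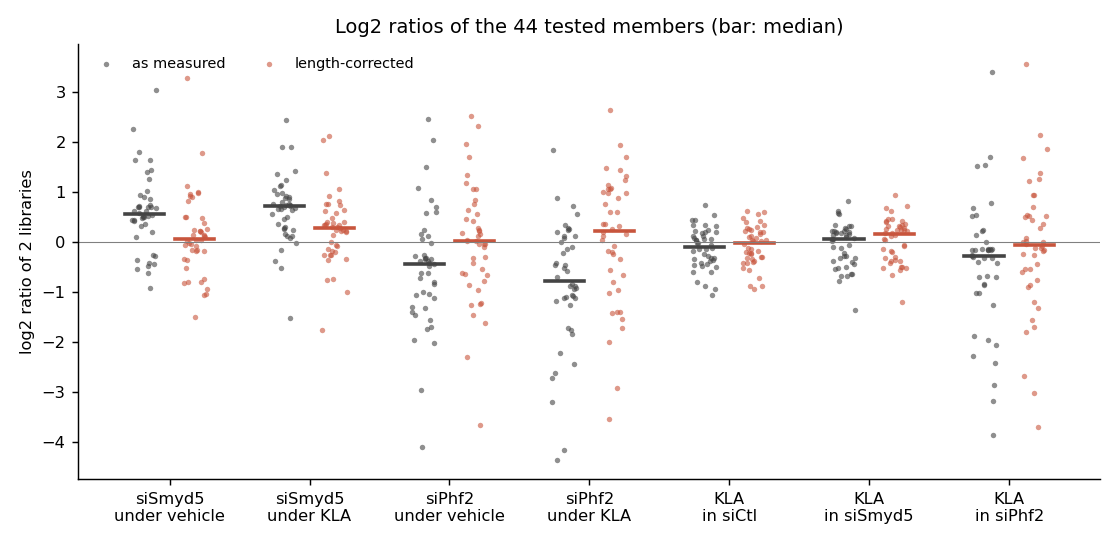
Log2 ratios of 2 libraries for the 44 tested genes (points) in each of the 7 comparisons, as measured in grey and after subtracting the median of genes of like mRNA length in red, with bars at the medians. For siSmyd5 the medians fall from 0.559 and 0.713 to 0.0656 and 0.291, and for the siPhf2-labelled libraries they come from -0.439 and -0.78 to 0.0186 and 0.229.

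The siPhf2 comparison asks the same of siRNA against Phf2, with the limit that its libraries hold little but Rn45s and do not show lower Phf2. Of the 44 genes 1 was higher and 2 were lower (edgeR, adjusted p below 0.05), against 8.12% and 4.45% of all tested genes. The median was -0.604 in the family and -0.127 over all genes. Rpl13 was higher by 2.08 (SE 0.46, edgeR adjusted p = 0.0048), with 12 and 8 reads in the siPhf2-labelled libraries. Rpl34 had 2 and 1 reads there and a log2 change of -2.59 (SE 0.79, edgeR adjusted p = 0.036).

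Rpl30, a large subunit protein at the subunit interface, had no read in either siPhf2-labelled library and between 57 and 61 reads in each of the other 4. Its levels in those were 24.6, 25.7, 38.93 and 44.02 CPM. The exact Poisson 95% interval of its ratio reached 0.64 under vehicle and 1.09 under KLA, so under KLA it includes 1. Averaged over the agents, the edgeR adjusted p was 0.0149. No other tested gene of the family was without reads in both of these libraries.

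With length offsets 4 genes were higher (Rpl13, Rpl26, Rps20 and Rps9) and 0 lower, against 7.54% and 1.94%, and the median was 0.102. Over all genes the median with length offsets was 0.116. Scaled to the library total, which Rn45s dominates here, 0 were higher and 41 lower, where 0.475% and 91.9% of all genes were, and Rpl13 then stood at -0.07. Scaled to the total without Rn45s, 1 was higher and 18 were lower, where 4.24% and 17.1% of all genes were. The family's median was below 0 and below that of all genes under each scaling, at -0.604 against -0.127 with TMM, -2.76 against -2.26 with the library total and -1.08 against -0.602 without Rn45s. The length offsets turned its sign, and exchanging the names of siCtl and siPhf2 turns it by construction.

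By size, 3 genes were higher and 10 lower under vehicle (background 10.8% and 8.84%). The higher ones were Rps15a with a ratio of 5.91 (95% interval 3.57 to 9.64), Rpl13 with 4.58 (2.11 to 9.40) and Rpl26 with 2.89 (1.86 to 4.38). Lowest after Rpl30 were Rpl34 (0.216, 0.0257 to 0.802), Rpl3 (0.226, 0.0269 to 0.839), Rpl37 (0.273, 0.0555 to 0.82) and Rps19 (0.29, 0.0778 to 0.759). Under KLA 1 was higher and 6 lower (background 7.93% and 7.23%). Rpl13 was higher again at 3.83 (1.53 to 8.42). Rpl7 had no read there, and the interval of its ratio reached 0.935. Rpl34 (0.129, 0.00324 to 0.732), Rps15 (0.138, 0.00346 to 0.783), Rps21 (0.258, 0.0309 to 0.952) and Rps2 (0.457, 0.182 to 0.956) were the next lowest. Of the 3 genes higher under vehicle, Rps15a and Rpl26 had ratios below 1 under KLA, 0.434 (0.0516 to 1.62) and 0.525 (0.106 to 1.58), from 2 and 3 reads.

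The KLA comparison asks how 4 hours of Toll-like receptor 4 activation changed the RNA, averaged over the siRNAs. None of the 44 genes passed the test in either direction (0 higher and 0 lower, edgeR adjusted p below 0.05), while 11.2% of all tested genes were higher and 4.6% lower. At an unadjusted p under 0.05, 1 gene was higher and 7 were lower, and DESeq2, limma-voom and limma on log2 values called 0. The shares of all genes at that threshold and with these tools were not taken, so these counts show nothing particular to the family. The family's median was -0.0931, and that of all genes -0.0262. With length offsets 0 were called either way, at 9.97% and 4.92% of all genes.

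Averaged log2 changes with KLA ran from -0.70 (Rpl3) to 0.56 (Rpl13). Those of Rpl4 (-0.05) and Rps3 (0.01), which have many reads, were among the smallest. Rpl4 had 469.1 CPM under vehicle and 494.2 under KLA in siCtl, and 640.4 and 523.9 under the siSmyd5 label. Rps3 had 242.7 and 253.0 in siCtl and 375.2 and 403.4 under the siSmyd5 label. Rpl4 was higher under KLA in siCtl and lower under the siSmyd5 label, and Rps3 was slightly higher under KLA in both. Without either siPhf2-labelled library 8 genes were lower (among them Rpl3, Rpl37, Rplp1, Rplp2, Rps18, Rps26 and Rps27l) and 1, Rpl13, was higher. Of all genes 9.02% were then lower and 16.6% higher without the vehicle library, and 9.04% and 16.6% without the KLA library.

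By size, KLA in siCtl gave 0 higher and 1 lower gene, Rps3a with a ratio of 0.47 (0.362 to 0.605), at a background of 6.92% and 2.41%. In siSmyd5 it gave 0 and 1, Rpl3 with 0.349 (0.166 to 0.684), at 8.68% and 3.48%. In the siPhf2-labelled arm it gave 0 and 3, Rps15a (0.127, 0.0146 to 0.502), Rpl26 (0.177, 0.0346 to 0.57) and Rps14 (0.233, 0.0716 to 0.593), at 8.37% and 6.89%. Rps14 is the small subunit gene known from the 5q- syndrome, and its 5 reads in the siPhf2-labelled KLA library stood against 38 under vehicle.

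Other genes of the translation pathway were taken from lists by function. Their counts stand beside the shares of all tested genes called higher and lower, which were 2.71% and 3.6% for siSmyd5, 8.12% and 4.45% for siPhf2 and 11.2% and 4.6% for KLA. Of 21 tested non-ribosomal TOP mRNAs, which include translation factors and snoRNA host genes, 3 rose with the siSmyd5 label and 0 fell: Naca by 1.19, Eef1b2 by 0.87 and Eif3f by 0.73. With length offsets only Naca passed (edgeR adjusted p = 0.041), and it was set against long genes because its transcript is listed with 7025 bases. In the siPhf2-labelled libraries 3 were higher, with the snoRNA host genes Gas5 (3.87) and Snhg8 (2.61) beside Naca (1.83), and 4 were lower, namely Eif3e, Npm1 (-1.85), Eif3h (-1.68) and Pabpc1 (-0.92). With length offsets Naca (adjusted p = 0.0749), Npm1 (0.193), Eif3h (0.253) and Pabpc1 (0.148) lost the call. Eif3e had no read in either siPhf2-labelled library and 153 to 184 in each of the others. With KLA 1, Eef1g, was lower (-0.85, edgeR adjusted p = 0.0351; 0.0547 with length offsets).

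Of 42 tested ribosome assembly genes 8 rose with KLA and 0 fell, beside 11.2% and 4.6% of all genes, and with length offsets 6 were higher. They were led by Rrs1, which brings the 5S ribonucleoprotein into the large subunit (1.92, edgeR adjusted p = 2.3e-05), Tsr1 (0.93), Wdr43 (0.89), Nop58 (0.85), Ddx21 (0.74) and Mybbp1a (0.62, which lost the call with length offsets, adjusted p = 0.129). Their median was 0.275. With siSmyd5 0 of the 42 passed in either direction, and the siPhf2-labelled libraries gave 1 higher (Utp20 at 1.01) and 3 lower (Nip7 at -2.17, Gnl3 at -1.94 and Utp15 at -1.88), of which Nip7 alone kept its call with length offsets.

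Of 19 regulators of mTORC1, TOP mRNAs and S6 kinases, 2 rose with KLA and 0 fell, beside 11.2% and 4.6% of all genes. Counts this small show nothing particular to the list. Larp1, the TOP-binding repressor, rose by 0.83 (edgeR adjusted p = 0.0071) and Rps6ka3 by 0.66 (0.0209). With length offsets the adjusted p was 0.0567 for Larp1 and 0.0333 for Rps6ka3. The siPhf2-labelled libraries gave Mtor (1.06), Rptor (1.06) and Tsc1 (1.14) higher and Cnbp (-2.70) lower, and none of these 4 passed with length offsets (edgeR adjusted p of 0.263, 0.169, 0.287 and 0.053). Rheb, the activator of mTORC1, was the only one to rise with the siSmyd5 label (0.91, edgeR adjusted p = 0.0141), and with length offsets its adjusted p was 0.116. Of 9 genes of the p53 response to failed ribosome assembly, 1 was higher and 1 lower with KLA, beside 11.2% and 4.6% of all genes. Cdkn1a rose by 2.30 (edgeR adjusted p = 1.2e-05) and Sesn1 was lower (-1.68, 0.00994). With the siSmyd5 label 1 of the 9, Mdm4, was lower (-1.69, 0.0414), beside 3.6% of all genes. Ccng1 was lower in the siPhf2-labelled libraries (-2.02, edgeR adjusted p = 0.0208). With length offsets Cdkn1a and Sesn1 kept their calls, while Mdm4 (adjusted p = 0.12) and Ccng1 (0.0535) lost theirs.

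Mitochondrial ribosomal proteins, which share the function but not the genes, gave 2 higher of 68 tested with the siSmyd5 label (Mrps18c at 1.23 and Mrpl52 at 1.03), a share near the 2.71% of all genes, and a median of 0.395. Oxidative phosphorylation genes, also short, gave 18 higher and 0 lower of 67 and a median of 0.598, led by Ndufb4 (1.38), Uqcrh (1.31) and Uqcrb (1.16). In the siPhf2-labelled libraries 5 of the latter were lower, from Atp5c1 (-1.94) to Ndufs4 (-3.60). With KLA 1 of the 68 mitochondrial ribosomal protein genes, Mrpl1 (-0.82), was lower and 0 were higher. Of the 67 oxidative phosphorylation genes 2, the complex I genes Ndufs3 (-1.29) and Ndufb11 (-0.97), were lower and 0 higher. These counts stand beside 4.6% of all genes lower and 11.2% higher, and show nothing particular to either list. With length offsets 1 of the 5 genes lower in the siPhf2-labelled libraries, Uqcrc2, was still called, and for KLA Ndufs3 was not (adjusted p = 0.0568). For siSmyd5 with length offsets both lists had 0 calls in either direction, and their medians were 0.0582 and 0.199.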

How the data were processed

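Poly(A)-selected RNA of 6 libraries was sequenced on a Genome Analyzer 2 from barcoded cDNA, per the labels' protocols, and groups were taken from the sample titles. The authors deposited a signal: the reads of each RefSeq transcript, scaled so that every library counts 10000000 tags, under headers that name a tag total and the word cds. Per the submitters' processing notes, the tool HOMER and the build mm9 are named, with neither role nor version. Which aligner was run, and what became of reads that match several places, is not given in the sources used here.

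Whole reads were recovered by dividing each value by 10000000 over a header total; 100% of values were whole within 0.02, for siSmyd5 with the columns' own totals and for siCtl and siPhf2 only with each other's totals of the same agent (2.43% and 2.43% of siCtl and 1.13% and 0.76% of siPhf2 values were whole with their own). Reads were kept under the printed names. Of 29619 transcripts 1 was kept for each of 23282 symbols, 2 transcripts without a symbol were left out, and 7995 genes averaging 10 or more reads were tested. Depth was 420149 to 1429509 reads.

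The recovered reads were tested with edgeR 4.0.16 (R 4.3.3; TMM, quasi-likelihood, additive in siRNA and agent, 2 residual degrees of freedom) with Benjamini-Hochberg adjusted p below 0.05. Each group has 1 library, so the averaged effects take the departure from additivity as error. Ratios of 2 libraries have no test. Other settings were DESeq2 1.42.0, limma 3.58.1 (voom, and log2 of CPM with 15.4 added), other scalings and minimums, exchanged names, length offsets and leaving out each library. The method was checked on simulated counts. Gene lists and members were chosen with earlier results of these data known, and so support nothing by their choice. Genes were named by role, by level, by fewest reads and by the largest changes among those called (up to 8 in each direction for averaged effects, 5 for single comparisons and 6 for each list or after length correction); other members named in the text, such as Rpl4 under KLA, were chosen after their values were seen. Single results of some members are not reported here. Coding windows came from GENCODE M21 and start windows from RefSeq on GRCm38, and were matched by symbol; no coordinate was carried between builds.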

Additional observations from a re-analysis of the deposited data

How the results depend on the processing

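With 1 library per group, the p-values rest on 2 residual degrees of freedom and on the additive fit, and the siPhf2-labelled libraries bring 730 and 307 reads on the whole family. Single genes there carry few reads, so that only large differences were detectable. Counts of the 40 untested genes carry no comparison. Where a value changed with a setting below, the cause was not tested. No paired analysis was possible because each group has 1 library and the replicate number 1 is all that groups share.

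The counts of called genes are given as higher and lower of 44. The share of all tested genes called moved with the setting too. For siSmyd5 higher it was 2.71% in the main analysis, 0.325% with length offsets and 11.7% with exchanged names. It was not taken for every setting below, so a change of a count alone is no result about the family. For siSmyd5, with 15 and 0 in the main analysis, the higher calls were 8 with scaling to the library total, 6 with a minimum mean of 50 reads, 2 with DESeq2, 4 with limma-voom, 0 with limma on log2 values, 3 with length offsets and 5 with offsets by coding length; without a minimum 1 gene was lower. With exchanged names 21 were higher, of which 10 were among the 15; Rpl13, Rpl26, Rps15a and Rps9 were not called (0.40, 0.82, 0.99 and 0.34). Leaving out 1 library gave 0 to 30 higher and 0 to 2 lower, and leaving out both siPhf2-labelled libraries 29 and 2, where 13.2% and 14.2% of all genes were called. For KLA, with 0 and 0, the lower calls were 1 with DESeq2 size factors, 1 with scaling to the library total, 4 with the total without Rn45s and 1 with a minimum of 50 reads. Leaving out 1 library gave 0 to 1 higher and 0 to 8 lower, and leaving out both siPhf2-labelled libraries 1 and 9. For siPhf2, with 1 and 2, DESeq2 size factors gave 2 higher, the library total 0 and 41, the total without Rn45s 18 lower, no minimum 3 and 9, and a minimum of 50 reads 0 and 0. DESeq2 gave 0 lower, limma-voom 1 lower, exchanged names 2 and 1, length offsets 4 and 0, offsets by coding length 5 and 0, and leaving out 1 library 0 to 4 higher and 1 to 9 lower.

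The medians of the log2 ratios in single comparisons moved as follows. KLA in siCtl (-0.10) came to -0.17 with DESeq2 size factors, -0.28 with either total, 0.0 without a minimum, -0.19 with a minimum of 50 reads and -0.28 with exchanged names. KLA in siSmyd5 (0.052) came to -0.02 with DESeq2 size factors, -0.047 and -0.053 with the totals, 0.0 without a minimum and -0.15 with a minimum of 50 reads. KLA in siPhf2 (-0.28) came to -0.59 with the library total. The siSmyd5 median under vehicle (0.56) came to 0.44 and 0.45 with the totals, 0.32 without a minimum, 0.63 with a minimum of 50 reads and 1.03 with exchanged names, and under KLA (0.71) to 0.27 without a minimum and 1.33 with exchanged names. The siPhf2 medians (-0.44 under vehicle, -0.78 under KLA) came to -2.40 and -2.77 with the library total, -0.90 and -1.22 with the total without Rn45s, and 0.44 and 0.78 with exchanged names, a change of sign by construction.

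Length correction by the 200 nearest genes, the 100 nearest and the nearest with members included gave -0.018, -0.010 and -0.0069 for KLA in siCtl, 0.16, 0.15 and 0.16 for KLA in siSmyd5, and -0.061, -0.063 and -0.049 for KLA in siPhf2. For siSmyd5 these gave 0.066, 0.060 and 0.060 under vehicle and 0.29, 0.26 and 0.29 under KLA, and for siPhf2 0.019, 0.019 and 0.028 under vehicle and 0.23, 0.29 and 0.23 under KLA. Correction by coding length gave -0.050 and 0.13 for KLA in siCtl and siSmyd5, 0.26 and 0.41 for siSmyd5, and 0.10 and 0.012 for siPhf2. Of the named genes, scaling to the library total turned Rpl13 in the averaged siPhf2 effect to -0.07 and under KLA to -0.29, and Rpl26 under vehicle to -0.53. Exchanged names turned Rps15a for KLA in siPhf2 to 0.74 and Rpl3 in siSmyd5 under KLA to 0.20. The offsets by coding length and the fits without both siPhf2-labelled libraries were chosen after seeing the data.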
